A study of Homo sapiens with 8 samples.

Results

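The genes described here are the TNF superfamily, the ligands that resemble TNF and the receptors that bind them, in A375 cells, an established human metastatic melanoma cell line. Members were taken by gene symbol (the TNFSF and TNFRSF series, plus TNF, LTA, LTB, LTBR, FAS, FASLG, CD40, CD40LG, CD27, CD70, EDA, EDAR, EDA2R and RELT, with NGFR left out), which gave 46 of the 60710 genes in the count table, 18 ligands and 28 receptors. Parental A375 cells in DMEM with serum were either left untreated (NT) or given 50 ng/mL human recombinant TNF for 24 hours. Polyadenylated RNA was sequenced from 4 independent experiments, giving 4 NT and 4 TNF libraries, and no other treatment or time point enters here. A375 is a single cell line, so the values describe this line alone.

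Ligands of this family are mostly trimers anchored in the cell membrane or shed from it. Receptors with a death domain can assemble caspase-activating complexes, while receptors without it recruit TRAF adaptors and act mainly through NF-kB, and decoy receptors bind ligand without signalling. TNF itself acts through TNFRSF1A, which most cells carry, and TNFRSF1B, which is more restricted, and several family genes are known targets of NF-kB. Many members are best known from lymphocytes and myeloid cells, where they serve as costimulatory pairs.

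Of the 46 members, 27 passed the filter on low counts and were tested. Expression was higher with TNF for 13 of them and lower for 3, and 11 did not pass the test (edgeR's quasi-likelihood test, Benjamini-Hochberg adjusted p under 0.05 over all 16186 genes tested). Among all genes tested, 14.5% were called higher and 9.9% lower, against 48.1% and 11.1% of the tested members. The members TNFRSF9, LTB and TNFSF14 were kept by the filter only through the TNF libraries, so their difference follows from how they came to be tested. Among the other 24, 10 were higher and 3 lower. The median log2 fold change of the tested members was 0.43, and that of all genes tested was -0.0035. The values for TNF and NT did not overlap in 14 tested members that were higher with TNF and in 1 that was lower, where 15.6% and 11.7% of all genes had no overlap in these directions. With the added requirement of an absolute log2 fold change above 1, 7 members were higher and 2 lower, against 5.62% and 2.39% of all genes. With the experiment as a replicate block in the fit, 16 members were higher and 4 lower, where 21.3% and 18.2% of all genes were. TNFRSF9, LTB and TNFSF14 are among the 14, the 7 and the 16 members counted here as higher.

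**Figure D1:**
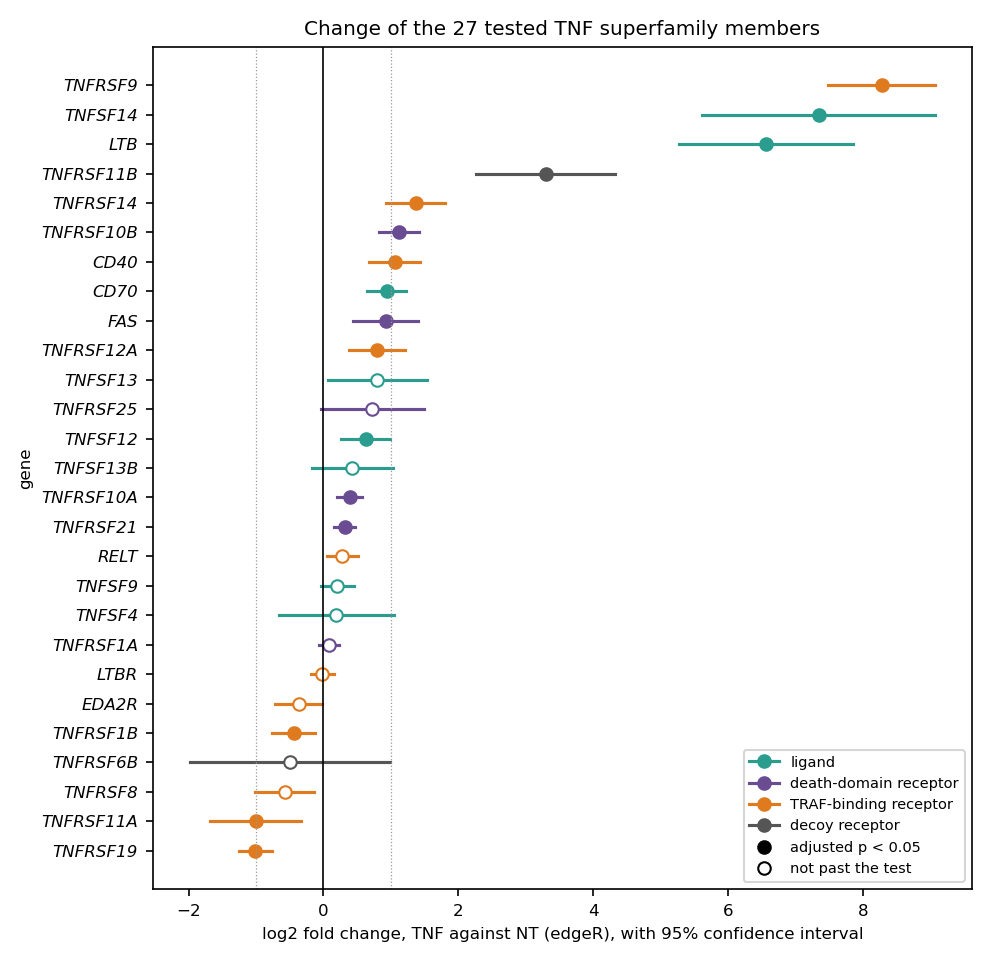
Log2 fold change of the 27 tested members, TNF against NT (x axis, edgeR coefficient with its 95% confidence interval), by gene (y axis). Filled points passed the test at an adjusted p under 0.05, open points did not, colours mark the role of the gene and dotted lines mark a log2 fold change of 1 in either direction. TNFRSF9, TNFSF14 and LTB stand at the top, but the coefficient of TNFSF14, which had 0 counts in all NT libraries, depends on the prior count of the fit and is no bound.

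The libraries held 30989787 to 44373296 counts. As a check of the treatment, NFKBIA, TNFAIP3, ICAM1, CXCL8, SOD2 and RELB, 6 known NF-kB targets, all had higher values in each TNF library than in any NT library. Of the melanocytic markers, SOX10 had 1025 ± 53.9 CPM and MITF 21.0 ± 1.24 CPM in NT cells (SD, n = 4), whereas PMEL and MLANA were below 1 CPM and TYR and DCT were near 0. S100B, also on that list of 7 and the only one of them called, fell from 17.3 ± 3.93 to 3.05 ± 0.421 CPM (SD, n = 4), a log2 change of -2.50 (edgeR adjusted p = 6.77e-06). CD2 and MS4A1 had 0 counts in all libraries and PTPRC had 3 in all, so defining markers of blood cells were at or near 0, although LYZ fell from 5.80 to 3.10 CPM (log2 change -0.90, edgeR adjusted p = 0.047). Of the keratinocyte markers KRT14 fell from 18.3 to 8.39 CPM, KRT5 rose from 0.192 to 1.61 CPM and TP63 had 2 counts over all libraries. Of the endothelial markers PECAM1 rose from 0.312 to 2.30 CPM, VWF went from 0.681 to 0.226 CPM without passing the test and CDH5 had 40 counts in all. Of the fibroblast markers DCN rose from 0.550 to 1.48 CPM, while LUM (1.64 and 0.937 CPM), PDGFRA (2.99 and 2.05 CPM) and COL1A1 (1.78 and 1.396 CPM) did not pass. The part of these markers in the results below was not tested. Annotated ribosomal, 7SK and 7SL RNA made up 0.0113% to 0.0118% of counts in NT replicates 2 and 4 and TNF replicate 4, against 0.00221% to 0.00402% elsewhere.

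In these data replicate 4 was often the highest library of its group. Among the members called higher, NT replicate 4 was the highest NT library for 7 of the 12 with any NT count, and TNF replicate 4 the highest TNF library for 9 of 13. The part of that experiment in the levels was not tested, but leaving out both of its libraries kept 15 of the 16 calls, ended that of TNFRSF11A and added TNFRSF25 (log2 change 0.95, edgeR adjusted p = 0.0121). In bulk RNA a change in the number of cells that express a gene and a change in RNA per cell cannot be told apart.

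The promoters shown next belong to members called with a change of over 2-fold that had a window, printed with and without a match. RefSeq promoter windows (GRCh38.p14) were found for 30 of the 46 members, and the 250 bases before each start were searched on both strands for the kB consensus, the 10-base motif bound by NF-kB. Of the 6 members called higher that had a window, 5 held a match at 1 or more of their starts (FAS, LTB, TNFRSF14, TNFRSF9 and TNFSF14), and TNFRSF21 held none. Without LTB, TNFRSF9 and TNFSF14, which the filter kept only through the TNF libraries, this was 2 of 3. The FAS match lies in the window of its most downstream start, where all 250 bases fall in annotated exons of FAS. The other FAS windows held no match. A match was found for 1 of 3 members called lower, 1 of 11 tested without a call and 2 of 10 not tested, against 11.8% of 27305 genes in the table. A match is a description of the letters and not evidence of binding. Each stretch is written 5′ to 3′ on the strand of the gene, with kB matches in capitals. For LTB, TNFRSF9 and TNFRSF14 the stretch is the longest part of the window outside the gene's own GENCODE exons, extended by at most 30 bases. The capitals in LTB and TNFRSF9 lie in that extension, inside an exon that GENCODE annotates for the gene, whereas those in TNFRSF14 lie outside its exons. TNFSF14, the remaining such member, is not shown because its matches lie in annotated exon bases beyond that limit.
LTB (chr6:31582493-31582674, minus strand): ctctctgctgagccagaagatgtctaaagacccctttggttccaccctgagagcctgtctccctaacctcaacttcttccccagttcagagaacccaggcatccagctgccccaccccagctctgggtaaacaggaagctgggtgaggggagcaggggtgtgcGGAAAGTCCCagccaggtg
TNFRSF9 (chr1:7940904-7941089, minus strand): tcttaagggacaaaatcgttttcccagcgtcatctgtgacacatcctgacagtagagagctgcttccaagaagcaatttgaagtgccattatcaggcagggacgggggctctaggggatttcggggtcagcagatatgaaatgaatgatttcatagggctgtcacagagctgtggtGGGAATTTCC
TNFRSF14 (chr1:2556262-2556370, plus strand): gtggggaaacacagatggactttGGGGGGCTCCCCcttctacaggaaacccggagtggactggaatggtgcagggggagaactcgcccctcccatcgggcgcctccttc
TNFRSF19, downstream start (chr13:23579110-23579359, plus strand): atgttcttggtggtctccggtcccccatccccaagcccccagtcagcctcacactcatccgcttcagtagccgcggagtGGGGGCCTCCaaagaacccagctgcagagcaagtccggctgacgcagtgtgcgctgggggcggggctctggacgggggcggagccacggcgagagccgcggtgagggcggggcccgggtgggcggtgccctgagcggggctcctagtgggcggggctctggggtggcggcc
TNFRSF11A (chr18:62325060-62325309, plus strand, no match): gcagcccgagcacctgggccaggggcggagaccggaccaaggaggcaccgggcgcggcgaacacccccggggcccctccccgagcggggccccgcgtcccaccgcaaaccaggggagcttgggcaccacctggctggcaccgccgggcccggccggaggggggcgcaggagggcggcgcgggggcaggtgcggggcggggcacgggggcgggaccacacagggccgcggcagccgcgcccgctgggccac
In LTB the match begins 87 bases before the first of the 2 RefSeq starts listed. The TNFRSF9 window held 2 overlapping matches, on opposite strands, that begin 74 and 73 bases before the start, of which the printed stretch contains the first. In TNFRSF14, 3 overlapping matches begin 86 to 84 bases before the start. TNFRSF19, which fell with TNF, also held a match, 171 bases before the downstream of its 2 starts. The window of its upstream start held no match and is not shown.

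Among the ligands, 4 of the 8 tested were higher with TNF (CD70, TNFSF12, LTB and TNFSF14) and 10 were not tested. LTB and TNFSF14 were kept by the filter only through the TNF libraries, so their calls follow from how they came to be tested. No tested ligand was lower (also 0 at an unadjusted p under 0.05 in edgeR, and 0 in DESeq2 and limma voom). Of all genes tested 14.5% were higher and 9.9% lower, and 0 of 8 is near the latter share. The summed expression of all 18 ligands ran from 56.1 to 68.3 CPM in NT libraries and from 89.8 to 119 CPM in TNF libraries, and most of it came from CD70 and TNFSF9. CPM are counts scaled to library size after TMM and are not corrected for transcript length.

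CD70, the ligand of the T cell costimulatory receptor CD27, was at 32.5, 32.3, 29.2 and 41.4 CPM in NT replicates 1 to 4 and at 59.5, 63.5, 56.7 and 80.0 CPM in TNF replicates 1 to 4. Every TNF library lay above every NT library. The log2 fold change came to 0.94 (standard error, SE, of 0.13, edgeR adjusted p = 0.000444), or 1.92-fold. The differences between libraries of the same experiment were 0.87 to 0.97 on the log2 scale, so the 2 groups kept nearly the same distance in each experiment. CD27 itself had 6 counts over the NT and 8 over the TNF libraries and could not be tested.

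LTB encodes lymphotoxin beta, which joins LTA into a membrane trimer that binds LTBR. It had 1, 0, 0 and 1 counts in NT replicates 1 to 4 and 34, 61, 56 and 73 counts in TNF replicates 1 to 4. The ratio of the summed counts, scaled to library size, was 116 with a 95% counting interval from 31.8 to 965 (edgeR adjusted p = 1.86e-05). Even so, LTB reached only 1.63 ± 0.615 CPM (SD, n = 4) in TNF cells. TNFSF14, a ligand of TNFRSF14 and LTBR, had 0 counts in all NT libraries and 19, 22, 17 and 20 counts in TNF replicates 1 to 4. It was at least 27-fold higher in TNF cells, taking 3 counts summed over the NT libraries as the floor (edgeR adjusted p = 0.000278), and lay at 0.565 ± 0.127 CPM (SD, n = 4) there. Intervals and floors cover counting error only.

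TNFSF12, which encodes TWEAK, the ligand of TNFRSF12A, was at 1.92, 1.94, 1.89 and 1.65 CPM in NT replicates 1 to 4 and at 2.76, 3.04, 3.22 and 2.46 CPM in TNF replicates 1 to 4. The groups did not overlap and the log2 fold change was 0.63 (SE 0.16, edgeR adjusted p = 0.0173). The adjusted p rose to 0.0617 with no filter on low counts, to 0.0513 without TNF replicate 2, to 0.0537 without TNF replicate 3 and to 0.0561 when the 3 libraries richer in ribosomal RNA were left out. The readthrough gene TNFSF12-TNFSF13, which shares exons with it and with TNFSF13, was assigned 0 to 18 counts per library, so a small part of the counts of both may have been split. TNFSF13, which encodes the B cell factor APRIL, went from 0.992 ± 0.450 to 1.74 ± 0.449 CPM (SD, n = 4), with a log2 fold change of 0.80 (SE 0.33, edgeR adjusted p = 0.112, 0.0106 with the replicate block). It was higher in the TNF library of each of the 4 experiments, but the ranges of the groups overlapped.

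The remaining tested ligands did not pass. TNFSF9, the ligand of TNFRSF9 and after CD70 the most expressed ligand, was at 21.9 ± 1.57 CPM (SD, n = 4) in NT and 25.2 ± 3.68 CPM in TNF cells. Its log2 fold change was 0.21 with a 95% interval from -0.03 to 0.45 (edgeR adjusted p = 0.207, 0.0406 with the replicate block). TNFSF13B, which encodes BAFF, was below 1.1 CPM in all libraries, with a log2 fold change of 0.43 and an interval from -0.17 to 1.03. TNFSF4, the ligand of TNFRSF4, was below 0.5 CPM in all libraries, with a log2 fold change of 0.19 and an interval from -0.66 to 1.04, and its sign turned without NT replicate 3 (-0.03).

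The TNF transcript had 0, 0, 0 and 1 counts in NT replicates 1 to 4 and 2, 8, 24 and 4 counts in TNF replicates 1 to 4, while the cells of the second group were given the protein from outside. Each TNF library had more counts than any NT library, and TNF replicate 3 held 24 of the 38 counts. The ratio of the summed counts was 39.4 with a 95% counting interval from 6.66 to 1600. The filter on low counts left TNF out of the test, and with no filter its adjusted p was 0.00148 from edgeR, over 31690 genes. LTA, whose product is lymphotoxin alpha, had at most 2 counts in an NT library and 1 to 3 in a TNF library.

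Other ligands had hardly any counts. CD40LG and TNFSF11, which encode the ligands of CD40 and TNFRSF11A, had 0 counts in all libraries. FASLG, the ligand of FAS, had 1 count in 1 TNF library, and TNFSF10, which encodes TRAIL, had 2 counts in 1 TNF library. TNFSF8 had 4 counts, all in TNF libraries, and TNFSF15 went from 2 to 9 and TNFSF18 from 5 to 14 summed counts, while EDA went from 15 to 11. A count of 0 allows up to 3 counts, which is 0.0641 to 0.0971 CPM depending on the library, so a 0 does not mean absence below that level.

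**Figure D2:**
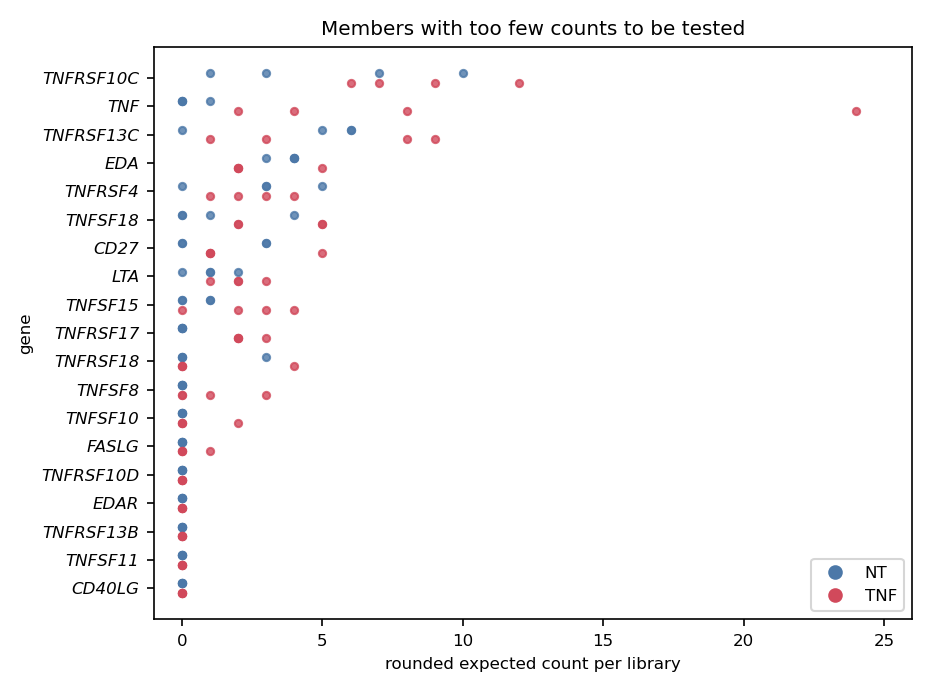
Rounded expected counts per library (x axis) of the 19 members with too few counts to be tested (y axis), with a point for each NT (blue) and TNF (red) library, drawn over each other where equal. Of these members 5 had 0 counts in all libraries, TNF reached 24 counts in TNF replicate 3 and no other member exceeded 12.

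Of the death-domain receptors, 4 of the 6 tested were higher with TNF (FAS, TNFRSF10A, TNFRSF10B and TNFRSF21) and none was lower, again with 0 at an unadjusted p under 0.05 in edgeR and 0 in DESeq2 and limma voom. Over all genes tested 14.5% were higher and 9.9% lower, and 0 of 6 is near the latter share. TNFRSF1A, the main receptor of TNF, was at 196, 196, 192 and 211 CPM in NT replicates 1 to 4 and at 207, 207, 201 and 230 CPM in TNF replicates 1 to 4. The ranges of the groups overlapped, and the log2 fold change was 0.09 with a 95% interval from -0.06 to 0.24 (edgeR adjusted p = 0.411). A rise above 0.24 on the log2 scale thus lay outside the interval. TNFRSF1A was higher in the TNF library of each of the 4 experiments, by 0.07 to 0.12 on the log2 scale. It did not pass the test in any of the 18 alternatives run.

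TNFRSF10B, a death receptor of TRAIL, was at 56.0, 62.4, 52.1 and 75.5 CPM in NT replicates 1 to 4 and at 115, 142, 120 and 159 CPM in TNF replicates 1 to 4. It more than doubled, with a log2 fold change of 1.12 (SE 0.14, edgeR adjusted p = 0.000155) and differences of 1.03 to 1.21 within the experiments. TNFRSF10A, the other death receptor of TRAIL, rose less, from 20.9 ± 1.01 to 27.4 ± 2.16 CPM (SD, n = 4), with a log2 fold change of 0.39 (SE 0.08, edgeR adjusted p = 0.00581). The antisense gene TNFRSF10A-AS1 had 19 to 43 counts per library, against 649 to 1315 for TNFRSF10A, and the sources used here do not say whether counting used the strand. FAS, the receptor of FASLG, was at 6.16, 5.68, 7.08 and 10.1 CPM in NT replicates 1 to 4 and at 11.3, 12.3, 12.1 and 19.3 CPM in TNF replicates 1 to 4. The lowest TNF library lay just above the highest NT library, and the log2 fold change was 0.92 (SE 0.22, edgeR adjusted p = 0.0111). Without TNF replicate 4 it was 0.72 (edgeR adjusted p = 0.0138), and with the replicate block the adjusted p was 1.77e-05.

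TNFRSF21, a death-domain receptor known from neurons and lymphocytes, rose from 192 ± 12.8 to 239 ± 6.88 CPM (SD, n = 4), a log2 fold change of 0.31 (SE 0.07, edgeR adjusted p = 0.00673). TNFRSF25, the receptor of TNFSF15, was at 2.44, 2.19, 1.89 and 1.97 CPM in NT replicates 1 to 4 and at 2.93, 4.91, 4.82 and 1.33 CPM in TNF replicates 1 to 4. The first 3 TNF libraries were above all NT libraries and the fourth was below them all. With all libraries the log2 fold change was 0.72 (SE 0.34, edgeR adjusted p = 0.165), and without TNF replicate 4 it was 0.99 (edgeR adjusted p = 0.00632). EDAR, the receptor of EDA, had 0 counts in all libraries.

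**Figure D3:**
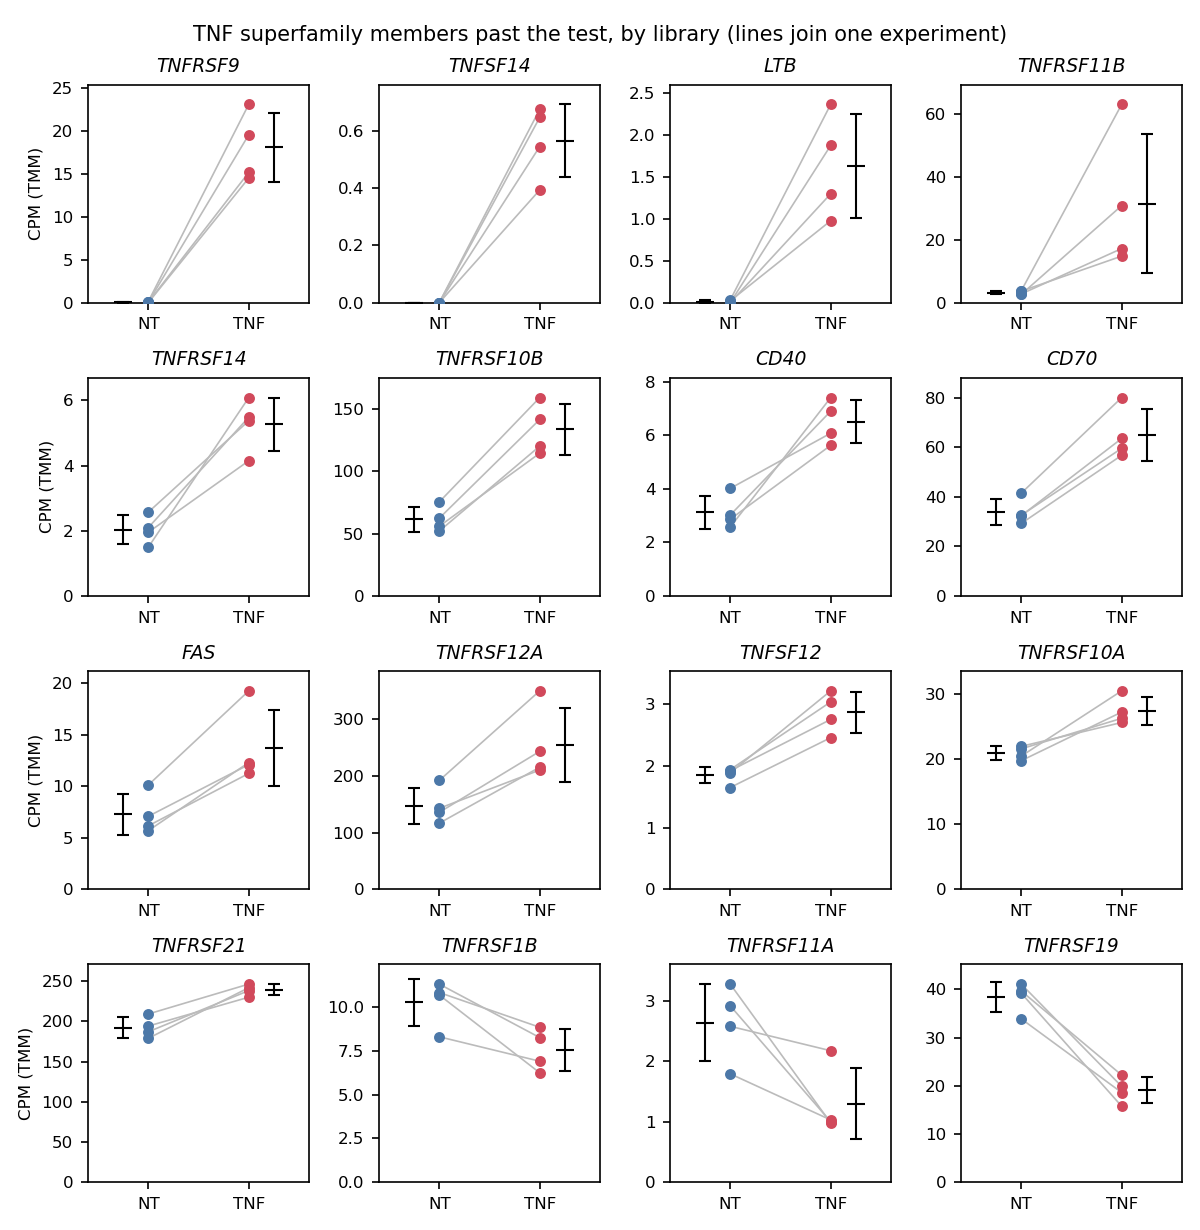
Expression of the 16 members that passed the test, in CPM after TMM scaling (y axis, each panel with its own scale starting at 0), in NT and TNF libraries (x axis). Points are libraries, grey lines join libraries of the same experiment, and black bars give the mean and SD of 4 libraries. All 4 TNF libraries lie above all 4 NT libraries in the 13 members that were higher, whereas the groups overlap for TNFRSF1B and TNFRSF11A and are apart for TNFRSF19.

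Of the receptors that bind TRAF adaptors, 4 of the 11 tested were higher with TNF (TNFRSF9, TNFRSF14, CD40 and TNFRSF12A) and 3 were lower (TNFRSF19, TNFRSF11A and TNFRSF1B). The shares over all genes tested were 14.5% higher and 9.9% lower. TNFRSF9 was kept by the filter only through the TNF libraries, so its call follows from how it came to be tested. All 3 lower calls of the family fell in this group, which holds the most tested members. Over the family they make up 11.1% of tested members, near the 9.9% of all genes. The calls of TNFRSF11A and TNFRSF1B depended on single libraries, as given below. TNFRSF9, a costimulatory receptor of activated T cells, had 2, 2, 0 and 4 counts in NT replicates 1 to 4 and 528, 636, 626 and 713 counts in TNF replicates 1 to 4. In CPM it went from 0.0561 ± 0.0527 to 18.1 ± 4.02 (SD, n = 4). Its log2 fold change of 8.28 (SE 0.36, edgeR adjusted p = 1.80e-07) was the largest of the family among members with NT counts, and was 8.88 without NT replicate 4 and 9.16 when the 3 libraries richer in ribosomal RNA were left out. The size of this change thus rests on 8 NT counts.

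CD40, the receptor through which T cells activate B cells and macrophages, was at 2.86, 4.02, 3.02 and 2.57 CPM in NT replicates 1 to 4 and at 5.63, 6.08, 6.90 and 7.41 CPM in TNF replicates 1 to 4. The groups were apart and the log2 fold change was 1.06 (SE 0.17, edgeR adjusted p = 0.00108). TNFRSF14, a receptor of TNFSF14, was at 2.09, 2.57, 1.95 and 1.49 CPM in NT replicates 1 to 4 and at 5.48, 5.37, 4.15 and 6.08 CPM in TNF replicates 1 to 4. Its log2 fold change was 1.37 (SE 0.20, edgeR adjusted p = 0.00051), and the difference was 1.99 in the fourth experiment and 1.05 to 1.37 in the others. Its antisense neighbour TNFRSF14-AS1 had at most 7 counts in a library.

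TNFRSF12A, the receptor of TNFSF12, was at 117, 136, 143 and 192 CPM in NT replicates 1 to 4 and at 216, 244, 211 and 351 CPM in TNF replicates 1 to 4. Replicate 4 was the highest library in both groups, and the lowest TNF library still exceeded it in the NT group. The log2 fold change was 0.80 (SE 0.19, edgeR adjusted p = 0.0111), with an adjusted p of 0.0726 when no filter on low counts was used and 4.87e-06 with the replicate block.

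TNFRSF19, an orphan receptor expressed in the developing nervous system and in skin, had the clearest fall. It was at 39.6, 41.1, 33.9 and 39.2 CPM in NT replicates 1 to 4 and at 22.2, 19.9, 18.6 and 15.8 CPM in TNF replicates 1 to 4. The groups were far apart, and the log2 fold change of -1.01 (SE 0.11, edgeR adjusted p = 8.07e-05) is a level 2.01-fold lower with TNF. Its adjusted p was at most 0.000587 in all 18 alternatives run.

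TNFRSF11A, which encodes RANK, was at 1.80, 3.28, 2.58 and 2.92 CPM in NT replicates 1 to 4 and at 1.03, 0.983, 2.18 and 1.00 CPM in TNF replicates 1 to 4. TNF replicate 3 lay within the NT range, apart from the other 3 TNF libraries. The log2 fold change was -1.003 (SE 0.30, edgeR adjusted p = 0.0347). The call ended without NT replicates 2, 3 or 4 (adjusted p = 0.103, 0.0695 and 0.0685 from edgeR) and without TNF replicates 1, 2 or 4 (0.0869, 0.0968 and 0.0624). It also ended without both libraries of the fourth experiment (-0.85, 0.102) and when the 3 libraries richer in ribosomal RNA were left out, where the log2 fold change was -0.62 (0.287). With the replicate block its adjusted p was 0.0088.

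TNFRSF1B, the second receptor of TNF, was at 11.3, 10.7, 10.8 and 8.28 CPM in NT replicates 1 to 4 and at 8.24, 6.23, 8.82 and 6.89 CPM in TNF replicates 1 to 4. NT replicate 4 fell within the range of the TNF libraries. The log2 fold change was -0.44 (SE 0.15) and the adjusted p of 0.0498 from edgeR lay just under the threshold. It rose to 0.124, 0.117 and 0.116 without NT replicates 1, 2 and 3 and to 0.0645, 0.136 and 0.0858 without TNF replicates 1, 2 and 4, to 0.0501 with limma voom, to 0.0529 when 10 counts were required in every library and to 0.0555 when the 3 libraries richer in ribosomal RNA were left out. The TNF library was the lower one in each of the 4 experiments, and with the replicate block the adjusted p was 0.00631. Of the 2 receptors of TNF, TNFRSF1A thus had an interval around no change, with a small rise in each experiment. TNFRSF1B had a small fall whose call depended on single libraries.

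The 4 tested TRAF-binding receptors without a call were LTBR, RELT, EDA2R and TNFRSF8. LTBR, the receptor of LTB and TNFSF14, was at 121 ± 7.55 CPM in NT and 120 ± 7.92 CPM in TNF cells (SD, n = 4), with a log2 fold change of -0.01 and a 95% interval from -0.18 to 0.15. RELT, an orphan receptor, went from 21.2 to 25.1 CPM in NT libraries to 26.3 to 34.0 CPM in TNF libraries. Its groups did not overlap, but the adjusted p was 0.0658 from edgeR (log2 fold change 0.28), and 0.00961 with the replicate block. TNFRSF8, which encodes the lymphoma marker CD30, went from 3.87 ± 0.617 to 2.59 ± 0.520 CPM (SD, n = 4), with a log2 fold change at -0.57 (edgeR adjusted p = 0.0559, 0.00896 with the replicate block), and passed the test in 6 of the 18 alternatives run. Its adjusted p was 0.0356 without NT replicate 1 and 0.0315 without TNF replicate 4. EDA2R, a receptor of EDA, had a log2 fold change of -0.37 with an interval from -0.71 to -0.02 (edgeR adjusted p = 0.119, 0.0469 with library totals only).

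Receptors of lymphocytes among the untested TRAF-binding members stayed at a few counts. TNFRSF13B had 0 counts in all libraries, TNFRSF17 had 0 in the NT and 2 to 3 in each TNF library, and TNFRSF13C had 0 to 6 in NT and 1 to 9 in TNF libraries. TNFRSF4 had 11 summed counts in NT and 10 in TNF libraries, and TNFRSF18 had 3 and 4, each in 1 library.

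**Figure D4:**
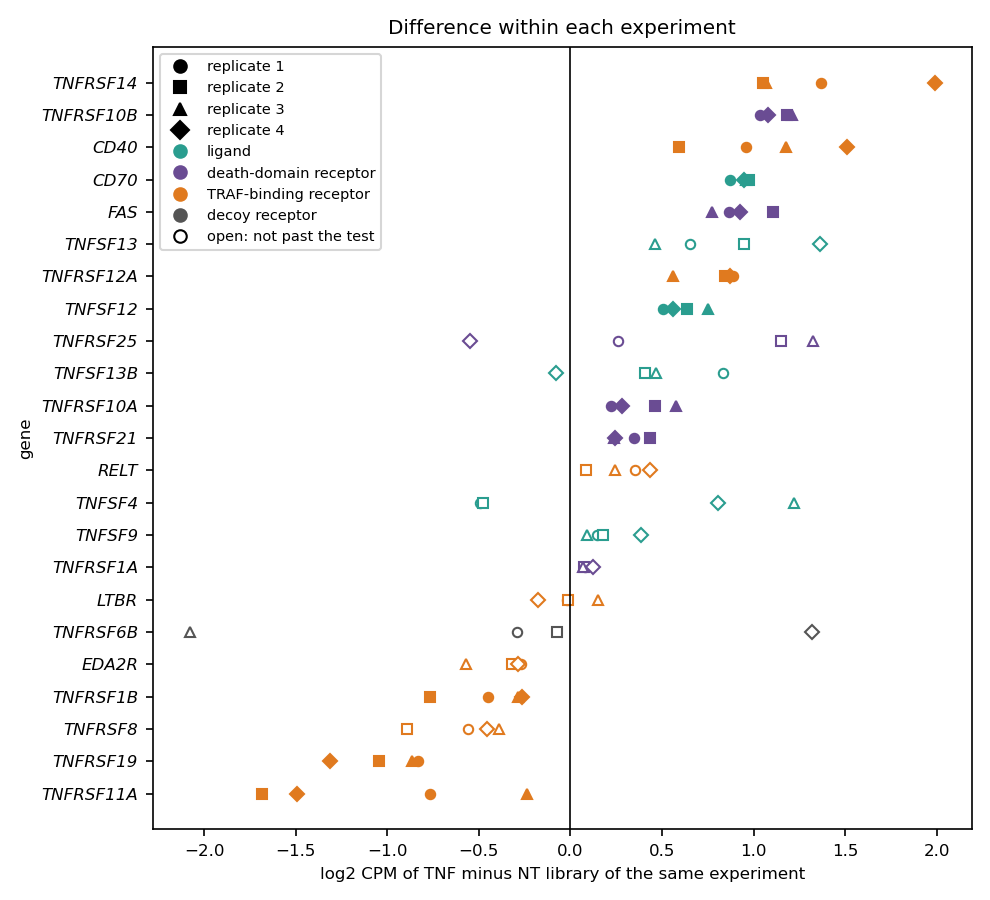
Difference in log2 CPM between the TNF and the NT library of the same experiment (x axis) for the 23 tested members with a log2 fold change below 2.5 in size (y axis). Marker shapes are experiments, colours are roles and open markers did not pass the test. CD70 and TNFRSF10B show nearly the same difference in each experiment, whereas TNFRSF25 and TNFRSF6B have differences on both sides of 0.

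Among the decoy receptors, TNFRSF11B encodes osteoprotegerin, the soluble decoy for TNFSF11 that also binds TRAIL. It was at 3.65, 2.62, 2.77 and 3.75 CPM in NT replicates 1 to 4 and at 14.8, 30.95, 17.3 and 63.2 CPM in TNF replicates 1 to 4. Every TNF library was above every NT library, and they differed among themselves far more than the NT libraries did. The log2 fold change was 3.30 (SE 0.46, edgeR adjusted p = 0.000634), or 9.82-fold. Without TNF replicate 4 it was 2.71, and when the 3 libraries richer in ribosomal RNA were left out 2.69, with adjusted p values of 8.98e-05 and 0.00575. TNFRSF6B, a soluble decoy for FASLG and TNFSF14, had 1 to 22 counts per library and a log2 fold change of -0.50 with an interval from -1.98 to 0.99. The readthrough gene RTEL1-TNFRSF6B, which shares its exons, was assigned 37 to 101 counts per library, so the level of TNFRSF6B is uncertain. The TRAIL decoys were hardly present, as TNFRSF10D had 0 counts in all libraries and TNFRSF10C 1 to 12 counts per library. The 4 TNFRSF10 genes resemble each other in sequence, and estimated counts may be shared between them.

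Levels of different members can be compared only per length, here as CPM per kilobase of the canonical GENCODE transcript. On this scale TNFRSF12A was the highest member in NT cells at 150 ± 32.9, followed by TNFRSF1A at 91.6 ± 3.97, LTBR at 56.7 ± 3.54 and TNFRSF21 at 53.5 ± 3.57 CPM per kilobase (SD, n = 4). The ranges of LTBR and TNFRSF21 overlapped, so their order is not resolved. CD70 was the highest ligand, at 37.2 ± 5.77 CPM per kilobase, below all NT values of TNFRSF21. With TNF, CD70 reached 62.3 to 87.8 CPM per kilobase, which is above the range of LTBR (50.8 to 59.3) and overlaps that of TNFRSF21 (64.0 to 68.6). TNFRSF11B rose from 1.53 to 15.1 CPM per kilobase, whereas TNFRSF9, with the largest fold change, reached 3.08 and LTB 1.82. TNFRSF19 fell from 8.66 to 4.31 CPM per kilobase, from a level above TNFRSF10A to one below it. All TNFRSF19 libraries with TNF (3.55 to 5.01) lay below all TNFRSF10A libraries with TNF (9.52 to 11.3), while their NT ranges overlapped.

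**Figure D5:**
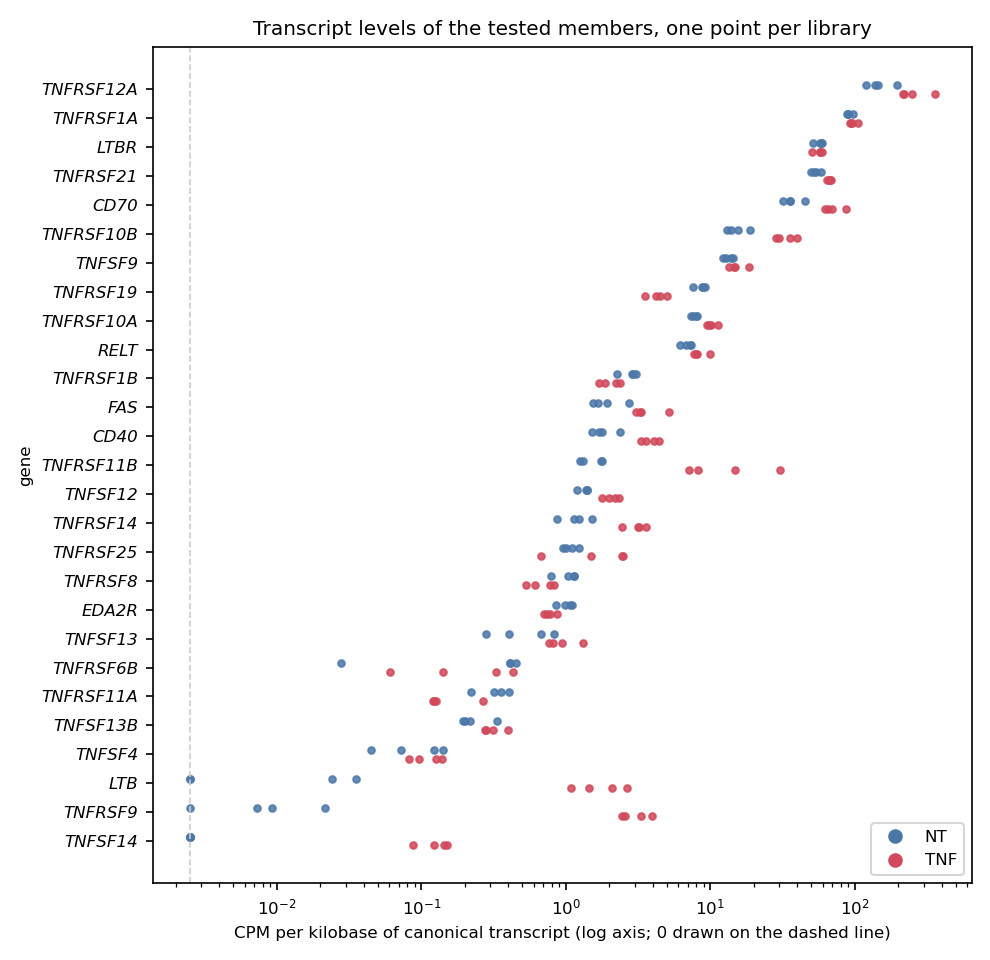
Transcript level of the 27 tested members in CPM per kilobase of canonical transcript (x axis, log scale), ordered by the NT mean (y axis), with a point for each NT (blue) and TNF (red) library and values of 0 drawn on the dashed line. TNFRSF12A and TNFRSF1A lead in both groups, and LTB, TNFRSF9 and TNFSF14 move from the bottom of the scale with TNF.

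Set beside each other as known ligand and receptor pairs, both partners were called higher for TNFSF12 with TNFRSF12A and for TNFSF14 with TNFRSF14. The calls of TNFSF12 and TNFRSF12A ended in 4 and 1 of 18 alternatives. TNFSF14, like LTB and TNFRSF9, was kept by the filter only through the TNF libraries. LTB was higher and LTBR, the receptor of LTB and also of TNFSF14, was not called. For TNFSF9 and TNFRSF9 the receptor was called and the ligand was not. CD70 rose while CD27 stayed at a few counts, and CD40 rose while CD40LG had 0 counts. TNFRSF10A, TNFRSF10B and FAS were higher while their ligands TNFSF10 and FASLG had at most 2 counts in any library. TNFRSF11B was higher and TNFRSF11A lower, with their shared ligand TNFSF11 at 0 counts. The call of TNFRSF11A ended in 8 of 18 alternatives.

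Several members lie next to each other in the genome. All 46 were found in GENCODE 44 (GRCh38), and 23 of them fell into 9 groups in which the next member lay within 200 kb. On chromosome 19, from 6531026 to 6670588, TNFSF9, CD70 and TNFSF14 follow each other, of which CD70 and TNFSF14 were called higher and TNFSF9 was not. On chromosome 6, from 31572054 to 31582522, LTA, TNF and LTB follow each other, of which LTB was called higher, TNF had few counts, mostly with TNF treatment, and LTA had 12 counts in all. The group on chromosome 12, from 6328757 to 6451718, holds TNFRSF1A, LTBR and CD27, none of which was called. TNFRSF8 and TNFRSF1B, on chromosome 1 from 12063303 to 12209228, both had negative log2 fold changes, of which that of TNFRSF1B was called. TNFRSF9, an intron-containing protein-coding gene with 8 exons in its canonical transcript, lies apart from these on the minus strand of chromosome 1, from 7915871 to 7943165.

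The genes that act just below these receptors were taken as a list of 18, all tested. It mixes adaptors, a kinase, ubiquitin ligases and caspases with inhibitors of the pathway. Of these 18, 10 were higher with TNF and 1 was lower (TRAF5), beside 14.5% and 9.9% of all genes tested, with a median log2 fold change of 0.46. TNFAIP3 in this list and RELB in the next also served as checks of the treatment. BIRC3, an inhibitor of apoptosis recruited by TRAF2, had a log2 fold change of 7.21 (SE 0.47, edgeR adjusted p = 6.87e-06). TNFAIP3, which encodes the ubiquitin-editing inhibitor A20, had one of 3.56, TRAF1 of 2.68 and BIRC2 of 1.32, with adjusted p values of 9.29e-07, 1.09e-05 and 0.000167 from edgeR. FADD and TRADD, the death-domain adaptors, rose by 0.53 and 0.43 on the log2 scale, whereas RIPK1 had a log2 fold change of 0.07 and CASP8 of -0.20 and neither passed the test. TRAF5 fell by 0.42 (edgeR adjusted p = 0.0159), and its call ended without NT replicate 3, which left 0 of the list lower.

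LTBR, CD40, TNFRSF12A and TNFRSF11A also use the non-canonical NF-kB pathway, for which a list of 8 genes was taken, 4 of them shared with the list above. Of these 6 were higher and 0 lower, again beside 14.5% and 9.9% of all genes, and 0 of 8 is near the latter share. The 6 are RELB, NFKB2 and the 4 shared genes, TRAF2, TRAF3, BIRC2 and BIRC3, which were already counted above. Like that list, this one mixes parts of the pathway with genes that restrain it. The count therefore gives no direction for the pathway, whose activity was not tested. DESeq2 and limma voom also gave 0 lower, as did edgeR when p under 0.05 was left unadjusted. RELB and NFKB2, the subunits of that pathway, had log2 fold changes of 3.04 and 2.73 (adjusted p = 5.60e-07 and 1.53e-07 from edgeR). MAP3K14, the kinase NIK, and CHUK, the kinase IKK-alpha, did not pass the test, at log2 fold changes of 0.22 and -0.07. Of 10 genes that cleave or mature family members, 9 were tested, 4 were higher and 1 was lower, and 1 of 9 is close to the 9.9% of all genes called lower. ERAP1, known to aid shedding of TNFRSF1A, rose by 0.91 on the log2 scale, FURIN, the proprotein convertase that matures several ligands, by 0.61 and SPPL2A, an intramembrane protease that cuts TNF, by 0.56 (adjusted p = 7.05e-05, 0.000457 and 8.42e-05 from edgeR). SPPL2B fell by 0.52 (edgeR adjusted p = 0.0132). ADAM17, the main sheddase of TNF and its receptors, showed a change of 0.29 on the log2 scale (edgeR adjusted p = 0.0773).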

How the data were processed

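RNA from A375 cells, 4 NT libraries and 4 treated with TNF, was prepared by the authors as stranded polyadenylated libraries, aligned with bowtie2 to the GRCh38 transcriptome and counted with RSEM 1.2.25. The authors deposited expected counts for each gene without normalization. For bowtie2 version, read filters and strand setting nothing is given in the sources used here. Dates in the titles gave the replicate number, and the methods name 4 independent experiments. For 4 NT records the single-sample file holds the counts of another NT column of the series table, so that table, whose column names match the titles, was used. Deviations from the group mean of same-numbered libraries correlated at 0.35, 0.17, 0.24 and 0.46 in replicates 1 to 4 over 16186 genes. Each library correlated most with the same-numbered one of the other group, so the numbers pair the libraries. The margin was narrow for TNF replicate 3, since NT replicate 1 reached 0.2257 with it against 0.2383 for NT replicate 3. That value also exceeds the 0.17 of replicate 2. Replicate pairs differed by more than sampling noise (chi-square per degree of freedom at least 12.2).

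Counts were rounded, filtered (edgeR filterByExpr, minimum count 10, minimum total 15), scaled by TMM and tested over the whole table with edgeR 4.0.16 (robust quasi-likelihood, treatment only, R 4.3.3), with Benjamini-Hochberg adjustment calling genes at 0.05. The SE was derived from the coefficient and its F statistic. The fits were first tested on simulated counts, and a prior count of 2 was added for log2 CPM. Every tested member is named, and in further lists up to 4 genes past the threshold by size of change, plus a few named for their role after their values were seen. Alternatives were DESeq2 1.42.0, limma 3.58.1 voom, other scalings and filters, the replicate block, libraries left out and a stricter threshold. Members, lists and alternatives were chosen with earlier results of these data known.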

Additional observations from a re-analysis of the deposited data

Results flagged for a closer look

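In 5 of 54 groups of 4 libraries (27 members in NT and TNF cells) a single library stood far from the others on the log2 CPM scale, where 2.7 would do so by chance. TNFRSF11A was at 1.16 in TNF replicate 3 (others 0.05 to 0.12), FAS at 4.27 in TNF replicate 4 (others 3.50 to 3.63) and RELT at 5.09 in TNF replicate 4 (others 4.72 to 4.78). TNFSF12 was at 0.77 in NT replicate 4 (others 0.96 to 1.00) and TNFRSF6B at -3.52 in NT replicate 4 (others -0.93 to -0.80), which is 1 count against 15 to 22.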

How the results depend on the processing

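Members called higher numbered 13, and 12 to 14 when 1 library was left out. They numbered 7 with an added absolute log2 fold change above 1, a count that the added requirement can only lower. Members called lower numbered 3, and 1 to 3 when 1 library was left out. The count was 5 with library totals only, 1 without the 3 libraries richer in ribosomal RNA and 1 at a threshold of 0.01. With the replicate block 16 were higher and 4 lower, and all 16 calls were shared, with RELT, TNFSF9, TNFSF13 and TNFRSF8 added. The receptor-proximal genes called lower numbered 1, 0 to 1 when 1 library was left out, 2 with upper-quartile factors, library totals, DESeq2 or the replicate block, and 0 at the threshold of 0.01, and the cleavage genes called lower went from 1 to 0 at that threshold. LTBR ranged from -0.0573 to 0.0317 when 1 library was left out, with its sign turned without NT replicate 2 (0.0109) and TNF replicate 4 (0.0317), and it was 0.0301 without both libraries of the fourth experiment and 0.0781 without the 3 libraries richer in ribosomal RNA. TNFSF4 ranged from -0.0264 (without NT replicate 3) to 0.4224, and was -0.0386 without the fourth experiment. Neither gene passed the test in any setting. The cause of these shifts was not tested. CD70, FAS, TNFRSF9, TNFRSF10A, TNFRSF10B, TNFRSF11B, TNFRSF14, TNFRSF19, TNFRSF21, CD40, LTB and TNFSF14 kept their call at the threshold of 0.05 in every alternative in which they were fitted, while at 0.01 FAS, TNFRSF12A, TNFSF12, TNFRSF1B and TNFRSF11A lost theirs. Over all genes 3948 were called, 6397 with the replicate block and 2320 at 0.01. LTB, TNFRSF9 and TNFSF14 were kept by the filter only through the TNF libraries, so their steady calls follow from how they came to be tested. The requirement of 10 counts in every library left these genes out of the test. Depth limits the 19 untested members, whose counts reached 24 in 1 library at most.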
